A study of Mus musculus with 16 samples.

Results

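The activin and TGF-beta pathway genes described here are 10 genes taken by name: the ligand genes Inhba, Tgfb1 and Gdf15, the activin-binding inhibitor Fst, the receptor genes Tgfbr1, Tgfbr2 and Acvr1, the signal transducers Smad3 and Smad7, and the TGF-beta-induced gene Tgfbi. They were read from an expression array through probe sets that name exactly 1 gene, and 7 of the 10 had such a probe set, among 18820 genes on the same rule. Fst and Tgfbr2 lie on probe sets that name several genes and Gdf15 was not in the array's gene table, so those 3 are not analysed here. Each of the 7 had a single probe set, so no value decided which one was used. The members were chosen by name with measured values of these arrays known. These values included the change of Inhba with DHA5HT in LPS-treated cells and that of Tgfbi with LPS. Both changes are given as a description with no test. Other tests of these genes in part reuse the same arrays, and those are not independent of the choice.

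The cells were RAW264.7, a mouse macrophage-like line transformed by a leukaemia virus, grown in serum-containing medium and kept for 24 h in 4 conditions with 4 arrays each. LPS+DHA5HT cells received lipopolysaccharide (LPS, a component of the bacterial outer membrane) at 1 µg/ml together with docosahexaenoyl serotonin (DHA5HT, the n-3 fatty acid docosahexaenoic acid joined to serotonin) at 1 µM. LPS cells received LPS at 1 µg/ml with vehicle, DHA5HT cells 1 µM DHA5HT alone, and control cells the solvent, ethanol at 0.1% by volume. All 16 arrays are of 1 cell line, and no label tells whether arrays of one group stem from independent cultures, so the p-values rest on a spread between arrays that may be technical. In bulk RNA, fewer cells that express a gene and less RNA per cell cannot be told apart.

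Activins and TGF-betas are dimeric secreted growth factors made as longer precursors that the protease furin cleaves. They bind type II receptors, which recruit and phosphorylate type I receptors. These in turn phosphorylate SMAD2 and SMAD3, which enter the nucleus with SMAD4 and regulate transcription. SMAD7 blocks the type I receptors as a feedback inhibitor, and follistatin (Fst) sequesters activin. In macrophages TGF-beta is known for restraining inflammatory activation, while activin A, the dimer of the Inhba product, is released when bacterial products are sensed.

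Values are log2 intensities after the authors' normalization, so a difference of 1 is a doubling, and ± gives the SD over 4 arrays. Of 10 macrophage markers all but 1 read at means from 8.93 to 12.55 over the arrays, while the mannose receptor gene Mrc1 read 3.45. The marker at 8.93, Adgre1, averaged 6.93 in control arrays. Lymphocyte and epithelial markers, which these cells should lack, had a median of 3.62 and single-gene means from 2.77 to 5.35. Where a group's level lies under 5.35, the brighter group over that level is given as the smallest fold, a bound chosen after the values were seen. For array 1 of the LPS+DHA5HT group the title names both agents and the treatment label DHA5HT alone. On a scale with the control mean at 0% and the LPS mean at 100%, its median over 136 genes with LPS changes of 4-fold or more was 83.8%. The remaining arrays with both agents stood at 78.5% to 90.8%, and arrays with DHA5HT alone at −4.41% to −1.41%. LPS+DHA5HT array 4 stood apart on the second principal component, at 22.4 against at most 9.36 for the others. Member differences between LPS+DHA5HT and LPS are also given without these arrays.

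With DHA5HT added to LPS, the contrast that the submitters' design describes, Inhba was at 33.8% of its LPS level. This change was known when Inhba was chosen and has no test. The other 6 members were tested and did not pass. With LPS alone, Inhba and Tgfb1 rose and Tgfbr1 and Smad3 fell, and Tgfbi, not tested there, was 9.42-fold lower. DHA5HT alone changed no member past the threshold. The plot of all 16 values per gene shows that LPS separates the arrays for Inhba, Tgfb1, Tgfbr1, Smad3 and Tgfbi, and that the 4 groups overlap for Acvr1 and Smad7.

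**Figure D1:**
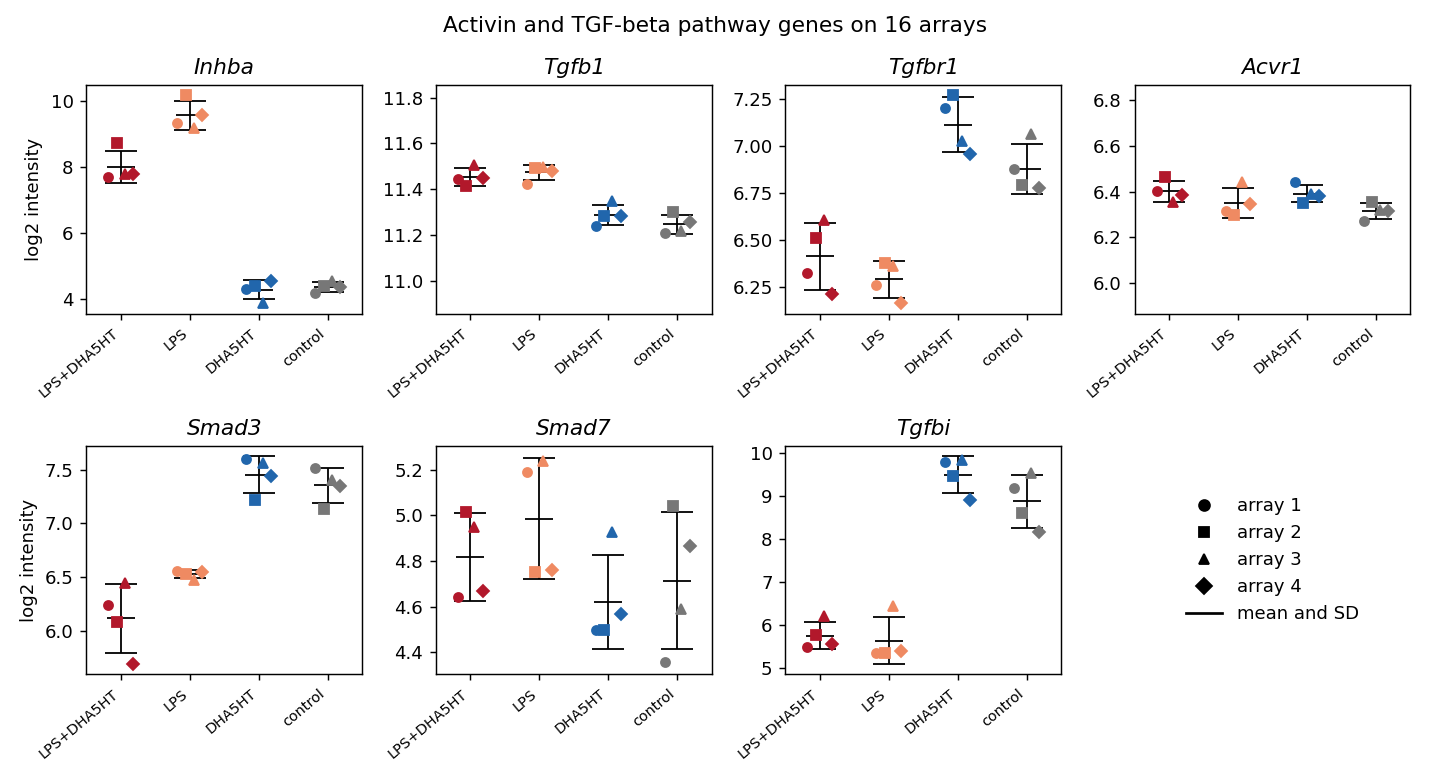
Log2 intensity (y axis) of the 7 measured genes in LPS+DHA5HT, LPS, DHA5HT and control arrays (x axis). Symbols are single arrays by number and bars the mean and SD of 4 arrays. Inhba lies between 7.71 and 8.74 in LPS+DHA5HT arrays, below all 4 LPS arrays at 9.20 to 10.18, and Tgfbi lies below 6.5 on every array with LPS.

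The counts of members stand beside those of the whole array. They include tests of Inhba and Tgfbi that reuse arrays of the changes for which those genes were known. In LPS+DHA5HT against LPS 0 of the 6 members tested passed in limma, where 1.79% of the 18820 genes passed (0.818% higher and 0.972% lower). At an unadjusted p under 0.05 the count was 1 of 6, against 13.7% of all genes. Of these 6 the groups did not overlap for Smad3, which was lower, as for 7.89% of all genes (3.97% higher and 3.91% lower). In LPS against control 4 of 6 passed, 2 higher and 2 lower, where 28.4% of all genes passed (12.6% higher and 15.8% lower). The groups did not overlap for the same 4 genes and for 29.8% of all genes (13.7% higher and 16.1% lower). In DHA5HT against control 0 of 7 passed, where 0.6% of all genes passed (0.122% higher and 0.478% lower). At an unadjusted p under 0.05 the count was 2 of 7, against 9.85% of all genes. The groups overlapped for all 7 members and did not overlap for 5.89% of all genes (3.03% higher and 2.85% lower). In LPS+DHA5HT against DHA5HT 5 of 7 passed, 2 higher and 3 lower, where 28.1% of all genes passed (12.4% higher and 15.7% lower). The groups did not overlap for 5 of 7 members and for 28.5% of all genes (12.8% higher and 15.6% lower). For the difference between the DHA5HT effects with and without LPS 0 of 5 passed, where 0.329% of all genes passed (0.165% higher and 0.165% lower), and 1 of 5 had an unadjusted p under 0.05, against 7.65% of all genes. LPS against control shares its LPS arrays with LPS+DHA5HT against LPS, so their values are set side by side and not correlated.

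The promoters of the members whose group means span at least 1 are shown because these genes move in opposite directions with LPS. Inhba rises while Tgfbi and Smad3 fall. Each window runs from 250 bases before to 50 after an annotated start in RefSeq (GRCm38.p6), written 5′ to 3′ in the direction of the gene, and 6 of the 7 members had one. Capitals mark the exact matches found on either strand to 6 motifs: AP-1 (TGANTCA), CRE (TGACGTCA), NF-kB (10 letters, GGG then NN then TTTCC), PU.1 (GAGGAA), the TATA box (TATAAA) and a SMAD palindrome (GTCTAGAC). Other forms of these motifs were not searched. Inhba lies on chr13:16011601-16011900 on the plus strand, Tgfbi on chr13:56609336-56609635 on the plus strand and Smad3 on chr9:63757945-63758244 on the minus strand.
Inhba: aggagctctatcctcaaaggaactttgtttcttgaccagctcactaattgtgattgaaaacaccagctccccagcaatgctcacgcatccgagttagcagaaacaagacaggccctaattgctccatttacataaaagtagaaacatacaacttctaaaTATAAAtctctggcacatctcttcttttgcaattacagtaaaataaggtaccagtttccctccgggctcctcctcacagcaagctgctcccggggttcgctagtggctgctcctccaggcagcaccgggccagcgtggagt
Tgfbi: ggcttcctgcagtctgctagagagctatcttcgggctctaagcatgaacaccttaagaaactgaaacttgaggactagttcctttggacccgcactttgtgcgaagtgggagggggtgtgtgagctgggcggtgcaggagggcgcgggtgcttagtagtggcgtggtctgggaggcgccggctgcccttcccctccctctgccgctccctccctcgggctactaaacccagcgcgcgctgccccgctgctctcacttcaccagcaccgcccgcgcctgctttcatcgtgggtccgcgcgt
Smad3: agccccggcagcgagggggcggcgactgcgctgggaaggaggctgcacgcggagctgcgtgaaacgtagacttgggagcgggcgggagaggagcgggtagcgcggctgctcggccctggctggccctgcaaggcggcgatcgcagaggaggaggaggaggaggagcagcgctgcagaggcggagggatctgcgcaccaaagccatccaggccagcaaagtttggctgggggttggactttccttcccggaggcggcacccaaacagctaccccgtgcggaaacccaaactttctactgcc
The Inhba window holds 1 match, TATAAA starting 91 bases before the annotated start, a motif present in 13.6% of 32851 such windows. The other motifs had no match in these 3 windows, and they are found in 7.81% (AP-1), 1.79% (CRE), 1.63% (NF-kB), 28.3% (PU.1) and 0.213% (SMAD palindrome) of all windows. The Inhba window is 47.7% G or C, against 63.3% for Tgfbi, 67.7% for Smad3 and a median of 52.7% over all windows.

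Among the ligand genes, Inhba (probe set 10403743), which encodes the beta A subunit of activin A, had the widest range. It read 7.71, 8.74, 7.78 and 7.80 in LPS+DHA5HT arrays 1 to 4, against 9.33, 10.18, 9.20 and 9.59 in LPS arrays 1 to 4. The highest LPS+DHA5HT array was below the lowest LPS array, and array 2 was the highest of its group in both. The means were 8.01 ± 0.49 in LPS+DHA5HT and 9.57 ± 0.44 in LPS arrays. Inhba was thus 1.56 lower on the log2 scale (SE 0.22), 2.96-fold, which leaves 33.8% of the LPS level on the linear scale. Without LPS+DHA5HT array 1 the difference was −1.47 and without array 4 it was −1.49.

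Inhba arrays of the same number moved by similar amounts. The difference LPS+DHA5HT minus LPS was −1.62, −1.44, −1.41 and −1.79 for the pairs numbered 1 to 4. In both groups the sample numbered 2 read about 1 unit above the lowest one, so the differences by number span less than the levels do. The plot of same-numbered differences shows Inhba apart from the other 6 genes. The change plotted was known when Inhba was chosen, so its place there is a description only.

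**Figure D2:**
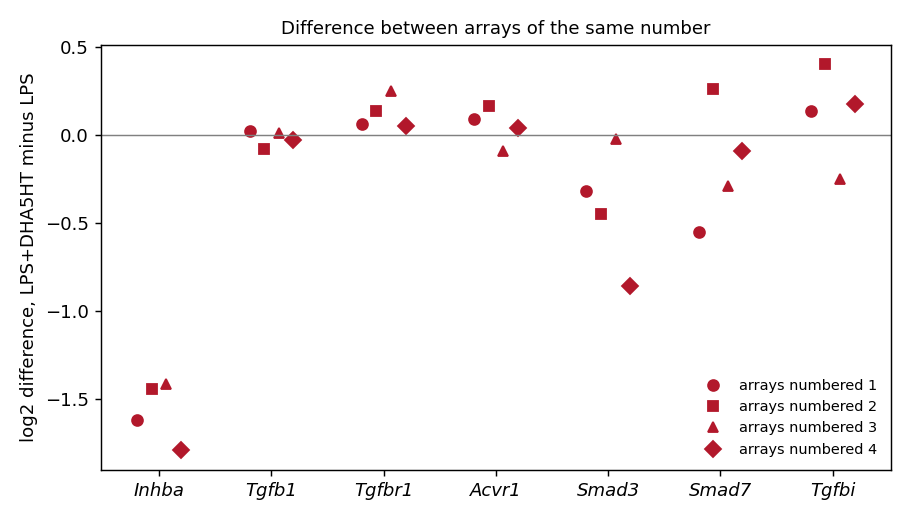
Log2 difference LPS+DHA5HT minus LPS (y axis) for each gene (x axis), with 1 symbol for each pair of arrays that share a number. The 4 Inhba differences lie between −1.79 and −1.41. Smad3 lies between −0.86 and −0.02, and each of the other genes but Tgfbr1 has values on both sides of 0.

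Without LPS, Inhba was low with or without the compound. It read 4.32, 4.42, 3.89 and 4.54 in DHA5HT arrays, against 4.21, 4.40, 4.55 and 4.36 in control arrays. These groups overlap, and the difference of −0.09 (95% interval −0.56 to 0.38) did not pass (limma adjusted p = 0.942). Both levels lie within the range of the lymphocyte and epithelial markers. LPS raised Inhba at least 18.7-fold over control (measured log2 difference 5.19, SE 0.22, limma adjusted p = 8.49e-12). In the presence of the compound the rise was at least 6.33-fold, with means of 8.01 in LPS+DHA5HT and 4.29 in DHA5HT arrays (measured log2 difference 3.72, SE 0.22, adjusted p = 8.28e-10). The 2 measured differences differ by −1.47 (SE 0.31), which is given with no test because it holds the change for which the gene was known. Both tests of the rise with LPS also reuse LPS or LPS+DHA5HT arrays of that known change. They are thus not independent of the choice of Inhba.

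Tgfb1 (probe set 10551185), which encodes the latent TGF-beta 1 precursor, was among the brightest genes of the array, above 98.2% of the 18820. It read 11.44, 11.41, 11.51 and 11.45 in LPS+DHA5HT arrays, against 11.42, 11.49, 11.50 and 11.48 in LPS arrays. The difference was −0.02 (95% interval −0.12 to 0.08, limma adjusted p = 0.917), and −0.02 without array 1 or 4 of the LPS+DHA5HT group. It read 11.24, 11.28, 11.35 and 11.28 in DHA5HT arrays, against 11.21, 11.30, 11.22 and 11.26 in control arrays. All 8 arrays with LPS thus stood above all 8 without it, by a small margin. LPS raised it 1.17-fold over control (log2 change 0.23, SE 0.05, adjusted p = 0.00151) and 1.12-fold in the presence of DHA5HT (0.17, SE 0.05, adjusted p = 0.0157). Both calls were lost when the arrays were quantile normalized again, at 0.13 (adjusted p = 0.0602) and 0.07 (adjusted p = 0.374). The second was also lost without DHA5HT array 1 (adjusted p = 0.0509), without LPS+DHA5HT array 3 (adjusted p = 0.0504) and in a fit of the 2 groups alone (adjusted p = 0.0583).

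Of the receptor genes, Tgfbr1 (probe set 10504817) encodes the type I TGF-beta receptor, which phosphorylates SMAD2 and SMAD3. It read 6.32, 6.51, 6.61 and 6.21 in LPS+DHA5HT arrays, against 6.26, 6.38, 6.36 and 6.16 in LPS arrays. Each LPS+DHA5HT array was above the LPS array of its number, but the groups overlap and the difference of 0.12 (95% interval −0.08 to 0.32) did not pass (limma adjusted p = 0.631). Without LPS+DHA5HT array 1 it was 0.15 and without array 4 it was 0.19. In DHA5HT arrays it read 7.20, 7.27, 7.03 and 6.96, against 6.87, 6.79, 7.06 and 6.77 in control arrays. That difference of 0.24 (SE 0.09) did not pass either (adjusted p = 0.408). LPS lowered Tgfbr1 relative to control (log2 change −0.59, SE 0.09, adjusted p = 0.000104) and, 1.62-fold, relative to DHA5HT arrays when the compound was present (−0.70, SE 0.09, adjusted p = 1.68e-05). The lowest array without LPS, at 6.77, stood above the highest with it, at 6.61.

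Acvr1 (probe set 10482824), a type I receptor that serves bone morphogenetic proteins and can bind activin A, varied least. Its 16 values lay between 6.27 and 6.46. The means were 6.40 ± 0.05 in LPS+DHA5HT, 6.35 ± 0.07 in LPS, 6.39 ± 0.04 in DHA5HT and 6.32 ± 0.03 in control arrays. None of its differences passed, and the 95% intervals were −0.06 to 0.16 for LPS+DHA5HT against LPS and −0.07 to 0.14 for LPS against control (limma adjusted p = 0.736 and 0.700). The first difference was 0.05 without LPS+DHA5HT array 1 and 0.06 without array 4.

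Smad3 (probe set 10594404), the transducer shared by activin and TGF-beta, was lower in every group with LPS. It read 6.24, 6.08, 6.45 and 5.69 in LPS+DHA5HT arrays, against 6.56, 6.52, 6.47 and 6.55 in LPS arrays. The groups do not overlap, but the highest LPS+DHA5HT array lies 0.02 below the LPS array of its number and the lowest lies 0.86 below its own. The SD was 0.32 in LPS+DHA5HT and 0.04 in LPS arrays. The mean difference of −0.41 (SE 0.13, 95% interval −0.68 to −0.14) did not pass (limma adjusted p = 0.123). It was −0.27 without LPS+DHA5HT array 4 (adjusted p = 0.293), the array that stands apart on the second component, and −0.45 without array 1 (adjusted p = 0.137). Without LPS+DHA5HT array 3 it was −0.52 and passed (adjusted p = 0.0408).

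Without LPS, Smad3 read 7.60, 7.22, 7.56 and 7.44 in DHA5HT arrays, against 7.52, 7.14, 7.41 and 7.35 in control arrays. Each DHA5HT array was above the control array of its number by 0.08 to 0.16, while the groups overlap and the mean difference of 0.10 did not pass (adjusted p = 0.857). LPS lowered Smad3 to 1.78-fold below control (log2 change −0.83, SE 0.13, limma adjusted p = 5.79e-05) and to 2.54-fold below DHA5HT arrays with the compound (−1.34, SE 0.13, adjusted p = 2.63e-07). The difference between these falls, −0.51 (SE 0.18), did not pass its own test (adjusted p = 0.446).

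Smad7 (probe set 10456745), the inhibitory member, was dim and scattered. It read 4.64, 5.01, 4.95 and 4.67 in LPS+DHA5HT arrays, against 5.19, 4.75, 5.24 and 4.76 in LPS arrays. In DHA5HT arrays it read 4.50, 4.50, 4.93 and 4.57, against 4.36, 5.04, 4.59 and 4.87 in control arrays. All 4 groups overlap, and these levels lie within the range of the lymphocyte and epithelial markers. The largest difference was LPS against control, at 0.27 (95% interval −0.05 to 0.59, limma adjusted p = 0.221), and LPS+DHA5HT against LPS gave −0.17 (−0.49 to 0.15, adjusted p = 0.699). That value was −0.11 without LPS+DHA5HT array 1 and −0.12 without array 4.

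Tgfbi (probe set 10405587) encodes a secreted matrix protein named for its induction by TGF-beta. It read 5.49, 5.76, 6.20 and 5.56 in LPS+DHA5HT arrays, against 5.36, 5.36, 6.45 and 5.39 in LPS arrays. Array 3 was the highest of its group in both, and the difference of 0.12 (95% interval −0.51 to 0.74) did not pass (limma adjusted p = 0.918). It was 0.20 without LPS+DHA5HT array 1 and 0.18 without array 4. It read 9.79, 9.46, 9.83 and 8.90 in DHA5HT arrays, against 9.20, 8.61, 9.53 and 8.16 in control arrays. All 4 DHA5HT arrays were above the control array of their number, by 0.31 to 0.85, yet the groups overlap and the mean difference of 0.62 (SE 0.29, 95% interval 0.00 to 1.24) did not pass (adjusted p = 0.507, and 0.130 with the replicate number as a block). LPS arrays averaged 5.64 ± 0.54 and control arrays 8.87 ± 0.61, a change of −3.24 (SE 0.29) or 9.42-fold, described without a test. The tests of Tgfbi above reuse these LPS or control arrays, so they are not independent of the choice of the gene. In the other pair of groups, whose arrays did not enter that known change, LPS+DHA5HT arrays averaged 5.75 ± 0.32 and DHA5HT arrays 9.49 ± 0.43, a fall of 13.4-fold (log2 change −3.74, SE 0.29, adjusted p = 2.82e-08).

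**Figure D3:**
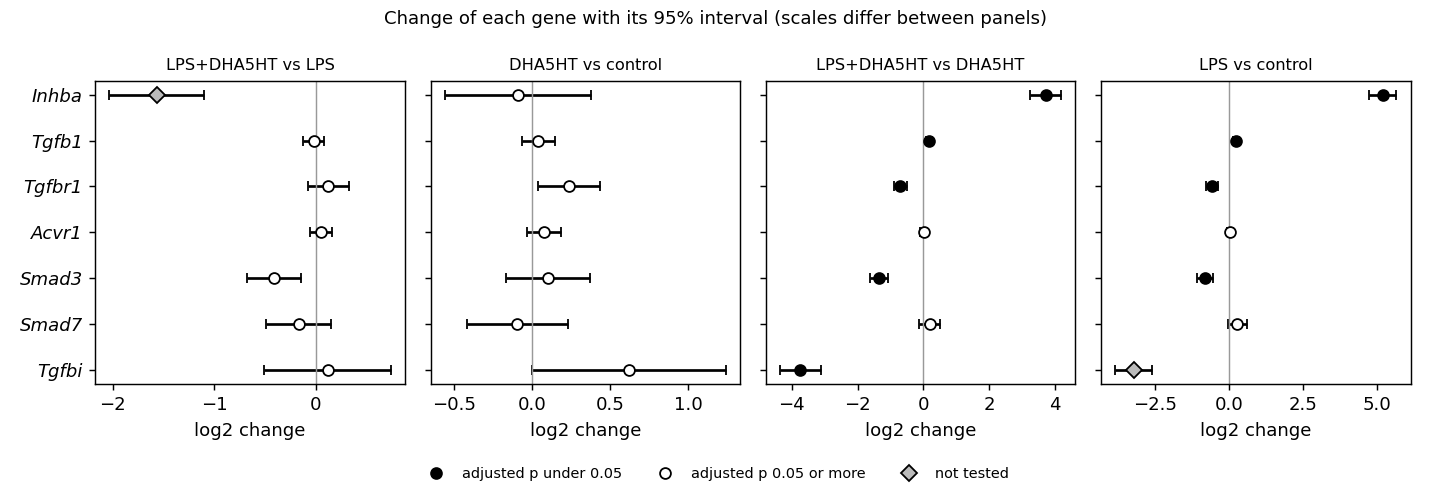
Log2 change (x axis) of the 7 genes (rows) in 4 comparisons, with 95% intervals from the fit. Filled circles passed at an adjusted p under 0.05, open circles did not, and grey diamonds were not tested. With LPS the measured differences run from −3.74 for Tgfbi to 5.19 for Inhba, and with DHA5HT alone every member lies between −0.09 and 0.62.

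The genes whose profile over the 16 arrays was most like that of a member were named from 844 genes whose group means also span at least 1, by Pearson's r. For Inhba they were Il23a (r = 0.996), which encodes a subunit of the cytokine IL-23, then Sprr2d (0.994), Slc7a2 (0.990), Il1rn (0.990) and Stfa3 (0.989). Il23a averaged 7.45 in LPS+DHA5HT, 8.63 in LPS, 4.58 in DHA5HT and 4.70 in control arrays. For Tgfbi they were Rdh10 (0.986), Rcan2 (0.985), Gpr155 (0.983), Rassf3 (0.982) and Plekhg3 (0.982). For Smad3 they were Psrc1 (0.983), Cenpf (0.981), Gpsm2 (0.976), Depdc1a (0.973) and Aspm (0.972). These are descriptions over arrays that share the contrast between LPS and no LPS.

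Around the members, 78 of 81 other listed genes of the pathway were measured. In LPS+DHA5HT against LPS 4 of them fell and 0 rose (5.13%, against 1.79% of all genes), with a median change of −0.05, against 0.00 over all genes. The list was chosen with earlier results of these data known. Its shares, here and in the other comparisons, are therefore not independent of these arrays. The 4 were the protease gene Furin, the latent TGF-beta activator Thbs1 (thrombospondin 1), and 2 genes known to respond to the family, Gadd45b and Id3. Of 19 genes on the ligand list, 12 receptor genes, 6 SMAD genes and 13 intracellular regulators 0 passed in limma without the replicate block. At an unadjusted p under 0.05 the counts were 8, 2, 0 and 2, a cut that 13.7% of all genes met. The 8, named after their values were seen, were Inhbb, Inhbe, Lefty1, Bmp4, Bmp7, Tgfb3, Bmp2 and Bmp1, which encodes a protease and not a ligand. All 8 had LPS+DHA5HT means under 5.35, within the range of genes these cells should lack. All but Tgfb3 and Bmp2 had LPS means there too.

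Gadd45b, a stress-response gene that TGF-beta can induce, read 9.34, 9.35, 9.20 and 9.32 in LPS+DHA5HT arrays, against 9.73, 9.79, 9.64 and 9.84 in LPS arrays. The change was −0.44 (SE 0.08, limma adjusted p = 0.00637), and it held when any of the 8 arrays was left out (adjusted p 0.00765 to 0.0253). Furin read 10.31, 10.83, 10.52 and 10.30 in LPS+DHA5HT arrays, against 10.90, 11.24, 11.02 and 11.12 in LPS arrays, a change of −0.58 (SE 0.12, adjusted p = 0.0204). Leaving out LPS array 2, LPS array 4, LPS+DHA5HT array 1 or LPS+DHA5HT array 4 ended this call (−0.57 to −0.52, adjusted p 0.0607 to 0.0771), as did a fit of these 2 groups alone (adjusted p = 0.0718).

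Thbs1 read 6.21, 6.61, 6.28 and 6.18 in LPS+DHA5HT arrays, against 6.82, 6.98, 6.88 and 6.76 in LPS arrays, a change of −0.54 (SE 0.11, adjusted p = 0.0202). Removing LPS array 2, LPS+DHA5HT array 1 or LPS+DHA5HT array 4 left Thbs1 above an adjusted p of 0.05 (−0.50 to −0.49, adjusted p 0.0632 to 0.0732). Id3, an inhibitor of DNA binding that bone morphogenetic proteins induce, read 7.36 to 7.56 in LPS+DHA5HT arrays, against 7.83 to 8.10 in LPS arrays, a change of −0.54 (SE 0.12, adjusted p = 0.0380). Of 8 leave-outs, that of LPS array 3 alone left Id3 under the threshold (adjusted p = 0.0444), and the other 7 gave 0.0630 to 0.105. For each of the 4 genes the highest LPS+DHA5HT array was below the lowest LPS array. The groups did not overlap for 7.89% of all genes (3.91% lower). These 4 were named because they passed on the same arrays, so the lack of overlap is no further support.

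With the replicate number as a block 10 of the 78 passed in LPS+DHA5HT against LPS, 9 lower and 1 higher, where 3.44% of all genes passed (1.72% higher and 1.72% lower). Besides the 4 above, these were Acvrl1 (−0.25, blocked adjusted p = 0.0319), the integrin gene Itgav (−0.40, 0.0235) and the repressor gene Tgif1 (−0.25, 0.0350). Id1 and the ligand genes Tgfb3 and Bmp2 made up the rest. Tgfb3 averaged 5.04 in LPS+DHA5HT and 5.46 in LPS arrays (blocked adjusted p = 0.0261), and Bmp2 5.06 and 5.70 (0.0235). Their LPS+DHA5HT levels lie within the range of genes these cells should lack. The measured differences, −0.43 and −0.64, thus do not give the size of the fall. The gene that rose was Id1, a relative of Id3, by 0.44 (blocked adjusted p = 0.00172, unblocked adjusted p = 0.106). It averaged 7.72 ± 0.23 in LPS+DHA5HT and 7.28 ± 0.23 in LPS arrays, and 7.48 ± 0.14 in DHA5HT and 7.17 ± 0.21 in control arrays. The 6 genes gained with the block were named after their values were seen.

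With DHA5HT alone 1 of the 78 genes passed (1.28%, against 0.6% of all genes). Cdkn1a, a cell cycle inhibitor and classical TGF-beta target, averaged 10.43 ± 0.10 in DHA5HT and 10.80 ± 0.16 in control arrays (−0.37, SE 0.08, limma adjusted p = 0.0396). Removing DHA5HT array 1, 2 or 3 or control array 2 or 4 ended the call (−0.37 to −0.31, adjusted p 0.0883 to 0.171), and so did a fit of these 2 groups alone (adjusted p = 0.158). With the block 3 of the 78 passed, where 0.951% of all genes did (0.298% higher and 0.654% lower). Besides Cdkn1a these were Id1 (0.31, blocked adjusted p = 0.0191) and the receptor gene Acvrl1 (−0.28, blocked adjusted p = 0.0407), named after their values were seen.

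In LPS against control 13 of the 78 rose and 10 fell (29.5%, against 28.4% of all genes), a share near that of the whole array. Among the genes on the ligand list 2 of 19 rose and 1 fell. Tgfb3 fell to 5.46 ± 0.19 in LPS arrays, against 6.85 ± 0.06 in control arrays (−1.38, adjusted p = 5.91e-08), while Bmp2 rose at least 1.27-fold (adjusted p = 0.00417), with means of 5.70 in LPS and 5.00 in control arrays. The third, Gdf11 (adjusted p = 0.00172), averaged 4.20 in LPS and 3.73 in control arrays, both within the range of genes these cells should lack, so no fold is given. Of 12 receptor genes the type II activin receptor gene Acvr2a fell by 0.68 (adjusted p = 0.000522), and the type II receptor gene Bmpr2 (0.27, adjusted p = 0.00422) and Acvrl1 (0.33, adjusted p = 0.0158) rose. The call of Acvrl1 was lost without control array 1 or LPS array 2 (adjusted p = 0.0658 and 0.0517).

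Of the 6 other SMAD genes 2 fell with LPS, Smad1 by 0.76 (adjusted p = 1.15e-05) and Smad5 by 0.35 (adjusted p = 0.00672), both transducers for bone morphogenetic proteins. Smad4, the shared partner, gave −0.07 (adjusted p = 0.369) and Smad2 −0.06 (adjusted p = 0.457), both named after their values were seen. Of 15 genes acting outside the cell 4 rose and 1 fell. Thbs1 rose to 6.86 ± 0.09 in LPS arrays, against 4.13 ± 0.18 in control arrays (measured difference 2.73, adjusted p = 4.28e-12), at least 2.86-fold, since its control level lies within the range of the lymphocyte and epithelial markers. Furin rose by 1.07 (adjusted p = 1.91e-06) and Itgav by 0.42 (adjusted p = 0.00601). The proteoglycan gene Dcn also passed (adjusted p = 6.51e-05), at 3.30 in LPS and 2.78 in control arrays, both under the median of genes these cells should lack, so no fold is given. Nrros, which holds latent TGF-beta 1 on the macrophage surface, fell by 0.87 (adjusted p = 8.91e-07).

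Of 13 intracellular regulators 3 rose and 4 fell with LPS. The repressors Skil and Tgif1 rose by 1.71 (adjusted p = 3.2e-11) and 0.71 (adjusted p = 4.49e-06), and the ubiquitin ligase gene Smurf1 by 0.58 (adjusted p = 0.000123). Trim33 fell by 0.33 (adjusted p = 0.000313) and Smurf2 by 0.27 (adjusted p = 0.0144), a call that ended on removing control array 1, control array 3 or LPS array 2 (adjusted p 0.0506 to 0.0542). Of 13 known targets Gadd45b (1.43, adjusted p = 1.63e-10) and Id3 (1.07, adjusted p = 2.78e-06) rose and Klf10, a TGF-beta-inducible early gene, fell by 0.58 (adjusted p = 2.18e-05).

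**Figure D4:**
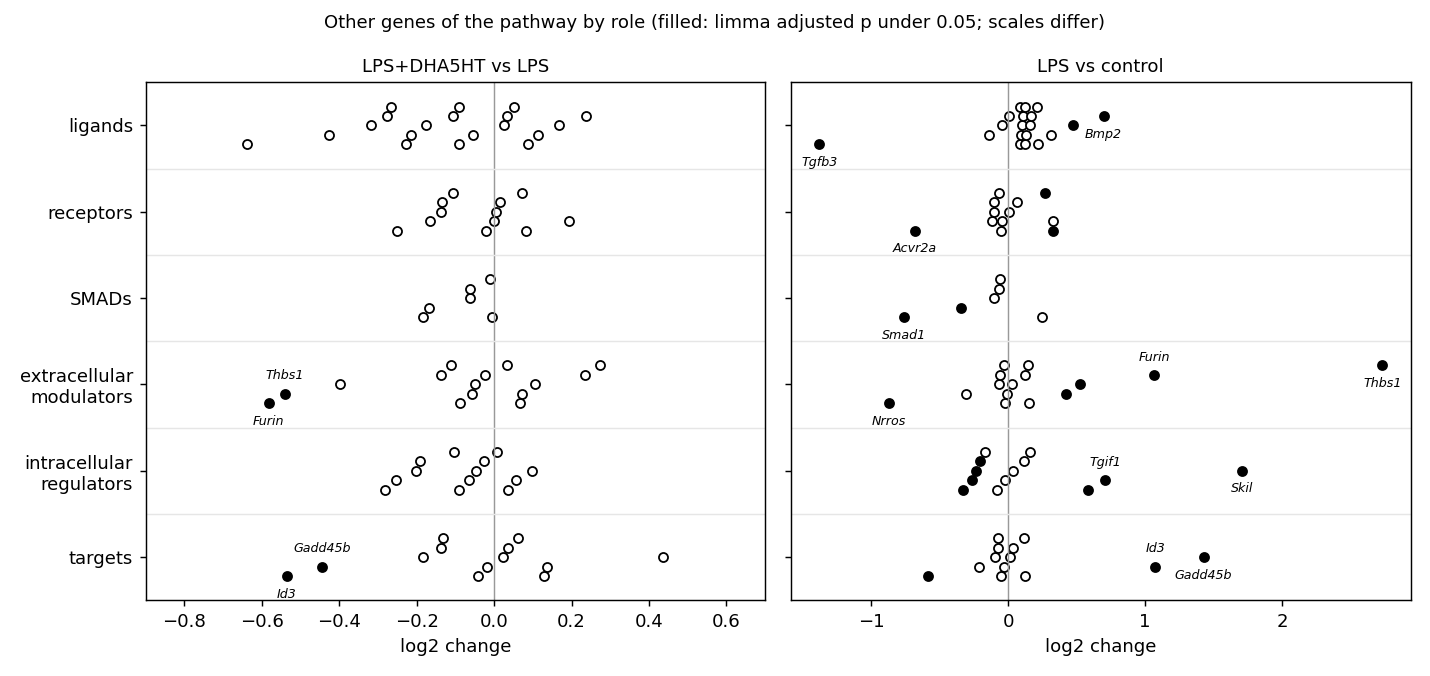
Log2 change (x axis) of the 78 other pathway genes by role (rows) for LPS+DHA5HT against LPS (left) and LPS against control (right). Filled points passed at an adjusted p under 0.05. With DHA5HT 4 genes passed, all lower, from −0.58 for Furin to −0.44 for Gadd45b, and with LPS 13 were higher and 10 lower, with measured differences from −1.38 for Tgfb3 to 2.73 for Thbs1.

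In the presence of DHA5HT, LPS+DHA5HT against DHA5HT, 11 of the 78 rose and 13 fell (30.8%, against 28.1% of all genes). Tgfb3 fell at least 2.12-fold (measured difference −1.40, adjusted p = 6.01e-08) and Thbs1 rose at least 1.97-fold (2.08, adjusted p = 1.82e-10). Skil rose by 1.45 (adjusted p = 3.26e-10), Gadd45b by 1.09 (adjusted p = 6.42e-09) and Furin by 0.52 (adjusted p = 0.0027). The pseudoreceptor gene Bambi averaged 4.88 in LPS+DHA5HT and 5.47 in DHA5HT arrays (adjusted p = 0.00231), at least 1.09-fold lower. For the difference between the DHA5HT effects with and without LPS limma called 0 of the 78, and 14 reached an unadjusted p under 0.05 (17.9%, against 7.65% of all genes). The 4 genes that fell in LPS+DHA5HT against LPS gave −0.80 for Id3 (adjusted p = 0.0736), −0.65 for Thbs1 (adjusted p = 0.124), −0.54 for Furin (adjusted p = 0.334) and −0.34 for Gadd45b (adjusted p = 0.363). Bmp2, which did not pass either, gave −0.71 (adjusted p = 0.427). It averaged 5.06 in LPS+DHA5HT, 5.07 in DHA5HT and 5.00 in control arrays, all within the range of genes these cells should lack. The Thbs1 levels without LPS, 4.24 in DHA5HT and 4.13 in control arrays, lie there too. For both genes the value is thus a measured difference and not the size of an effect.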

How the data were processed

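Per the labels' protocols, total RNA of RAW264.7 cells was labelled with an Affymetrix whole-transcript assay for arrays. The authors deposited log2 values, for which the submitters' processing notes name RMA. The RMA version, array annotation and filters are not given in the sources used here. The table held 35556 probe sets for 16 arrays, with array medians from 4.58 to 4.67 and no 2 arrays identical. The number of arrays limits the precision.

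Gene names came from the platform's annotation, updated through RefSeq. Of the probe sets 21218 named 1 gene, 1881 several, and 12457 were not listed. The highest mean decided where a gene had several probe sets, which left 18820 genes. Groups followed the titles. limma 3.58.1 (R 4.3.3) fitted 4 group means over all 16 arrays for 5 comparisons, two-sided, with Benjamini-Hochberg adjustment over all genes and a threshold of 0.05. The fit was tested on simulated data.

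Same-numbered arrays deviated together in LPS+DHA5HT and LPS (r 0.116 to 0.205) and in DHA5HT and control (r 0.131 to 0.183). With 0.1 as the minimum, the replicate number was taken to pair them in those comparisons. These correlations are weak. Over all pairs of groups the best match of an array had the same number in 20 of 24 cases, while LPS+DHA5HT array 4 deviated most like LPS array 2. Other groups gave similar values, r 0.0995 to 0.131 for LPS and control and 0.0699 to 0.232 for LPS+DHA5HT and DHA5HT. Members and lists were chosen with earlier results of these data known. Named genes are the members, up to 5 per list and comparison past the threshold with the largest change, and the 5 most alike in profile to members spanning at least 1, skipping predicted genes, microRNAs and small nucleolar RNAs. Tried besides were an intensity trend, the replicate block, a filter on dim genes, quantile normalization, centring, all probe sets, array weights, the compared groups alone, a threshold of 0.01 and leaving out each array.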

Additional observations from a re-analysis of the deposited data

Results flagged for a closer look

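For 3 members 1 array lay far from the other 3 of its group, among 28 groups of 4 checked. The gap to the nearest array took up 0.918 of the group's range for Inhba, 0.973 for Tgfbi and 0.836 for Smad7. Chance flags about 1 in 20 groups. Inhba stood at 8.74 in LPS+DHA5HT array 2, with the others between 7.71 and 7.80, and without this array the difference from LPS was −1.81. Tgfbi stood at 6.45 in LPS array 3, with the others between 5.36 and 5.39, and without it the change against control was −3.51. Smad7 stood at 4.93 in DHA5HT array 3.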

How the results depend on the processing

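Of 1380 values recomputed for the members and the named genes, 1320 kept their direction and their side of the threshold, 50 lost a call, 1 gained one and 9 changed sign. Changes given with no test have no side of a threshold. They were counted as kept if they shifted by less than the largest SD of the groups compared. Leaving out a single array cannot shift a group mean by that much, so these changes could not fail in the leave-outs. The replicate block and the intensity trend leave the size of a change as it was. The 1320 thus include untested changes that were certain to be kept, and for those the count is no evidence of stability. The sign changes were of values near 0 that did not pass: Smad7, for the difference between the DHA5HT effects (−0.185 to 0.0421 over the leave-outs, 0.0246 without DHA5HT array 3, 0.0077 without LPS array 3) and DHA5HT against control (−0.210 to 0.0168), Acvr1, for LPS+DHA5HT against DHA5HT (−0.00338 and −0.00997, in a range up to 0.0275) and the difference between effects (−0.0446 to 0.00699), Inhba with DHA5HT alone (−0.175 to 0.0443 over the leave-outs), and Tgfbi in LPS+DHA5HT against LPS (−0.0344 to 0.386). Inhba in LPS+DHA5HT against LPS ranged from −1.81 to −1.36 over the leave-outs and from −1.56 to −1.53 over the other settings.

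Counts of all genes called in LPS+DHA5HT against LPS were 337, but 647 with the replicate block, 557 for genes brighter than the median, 86 on the compared groups alone, 81 at a threshold of 0.01 and 143 to 289 over the leave-outs. Of the other pathway genes 4 passed there, but 10 with the block, 7 with the brightness filter, 1 at 0.01 and 1 to 5 over the leave-outs. The members tested gave 0, and 0 to 1 over the leave-outs. DHA5HT against control gave 113 genes, 179 with the block, with 1 other pathway gene, 3 with the block and 0 on the compared groups alone and at 0.01 (0 to 1 over the leave-outs). The difference between effects gave 62, 96 with the block, 28 at 0.01 and 34 to 62 over the leave-outs. There 0 other pathway genes passed, but 1 with an intensity trend or the brightness filter (0 to 1 over the leave-outs). The block changed the call of no member in a paired comparison. With fewer arrays or genes tested the counts change by construction, and otherwise the cause was not tested.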
